A study of Mus musculus with 2 samples.

Results

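The genes described are 9 genes through which noradrenaline, adrenaline, acetylcholine and adenosine act on the heart. They were chosen by gene symbol out of 55536 genes in the gene table, with earlier results of these data known. They are the β receptor genes Adrb1 and Adrb3, the α1 receptor genes Adra1a and Adra1b, the muscarinic receptor gene Chrm2, the adenosine receptor gene Adora1, the adenylyl cyclase genes Adcy5 and Adcy6, and the receptor kinase gene Grk5. All 9 symbols were found in the gene table. The data are total RNA-seq libraries, made after ribosomal RNA was reduced, from 2 hearts of male B6CASTF1/J mice, an F1 hybrid strain, aged 2 months, with no treatment named in the labels. The hearts form 1 group of 2 biological replicates, so levels and their spread can be given, but no contrast between conditions. The labels number the males separately while giving the same donor entry, so that the hearts come from 2 animals is a reading of the labels, and the spread between them may be partly technical. The library of replicate 2 held 44321172 expected counts in all and that of replicate 1 held 38963569.

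Catecholamines released by sympathetic nerves and the adrenal gland act on β receptors, which couple through the stimulatory G protein to adenylyl cyclase. Cyclic AMP then activates protein kinase A, and the heart beats faster and with more force. Acetylcholine from the vagus nerve acts on the muscarinic receptor encoded by Chrm2, and adenosine on the receptor encoded by Adora1. Both couple to inhibitory G proteins, which lower cyclic AMP and open a potassium channel of the atria and the pacemaker tissue. The α1 receptors couple to the Gq class of G proteins and phospholipase C, and receptor kinases phosphorylate active receptors so that arrestins can bind.

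Of the 9 genes, 8 reached 1 TPM (a level corrected for transcript length and library size) in both mice, and Adrb3 did not. Among the 22015 nuclear protein-coding genes 49.8% reached that level. The cyclase gene Adcy6 had the highest mean, ranking 652 among these genes, and Adrb3 the lowest, ranking 13288. The median of the 9 genes was 15.1 TPM in replicate 2 and 12.8 TPM in replicate 1, beside 8.82 and 8.53 TPM in the same mice for the nuclear protein-coding genes that reached 1 TPM. From high to low the order of mean levels was Adcy6, Chrm2, Adcy5, Adra1a, Adra1b, Adrb1, Grk5, Adora1 and Adrb3. Every pair of neighbours in that order was apart in both mice and by more than the larger SD, except Adcy5 and Adra1a, whose means differed by 0.915 TPM with an SD of 1.39 TPM. A second deposited transcript table, made from the reads with another quantifier, was summed per gene and gave the same calls apart from 2 of them. There Adcy5 was above Adra1a in both mice, and the values of Chrm2 and Adcy5 overlapped. Both calls rest on a short retained-intron transcript, Adcy5-202, counted in the Adcy5 level there. The full-length Adcy5-201 had 22.0 TPM in replicate 2 and 20.1 TPM in replicate 1. These values lay below Adra1a (22.4 and 23.8 TPM) and Chrm2 (36.4 and 33.4 TPM) with the same quantifier. Nuclear protein-coding genes held 39.4% of all TPM in replicate 2 and 38.7% in replicate 1, so levels rescaled to those genes alone are higher, with Adcy6 at 221 in place of 86.4 TPM.

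**Figure D1:**
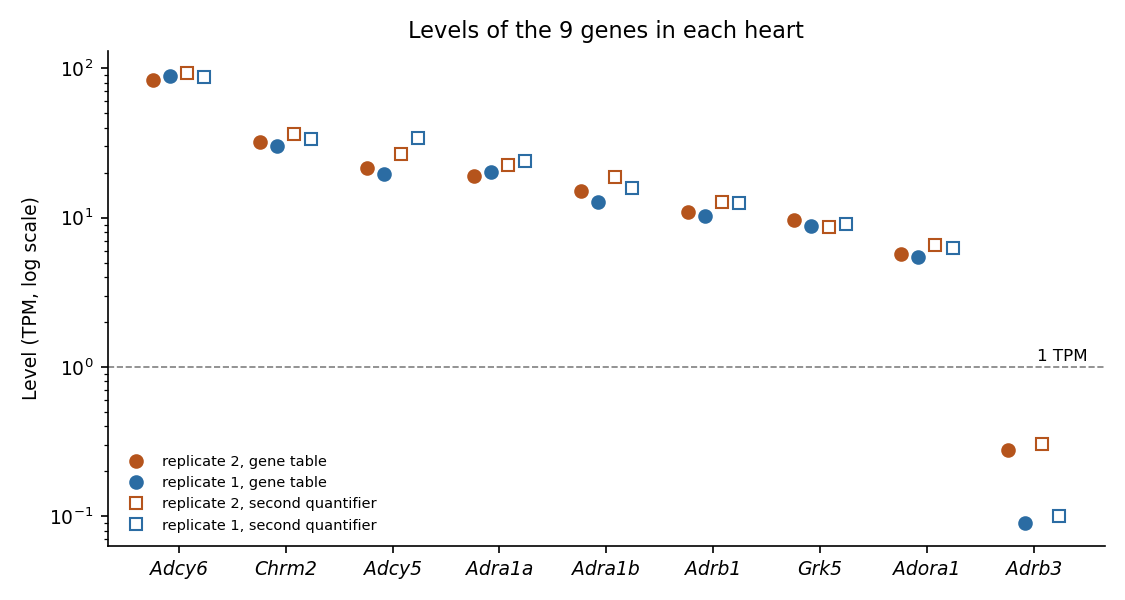
Level of each of the 9 genes in TPM on a log axis, in order of the mean, with replicate 2 left of replicate 1. Filled circles are the gene table and open squares the second quantifier, each point is 1 heart, and the dashed line marks 1 TPM. The values of Adrb3 lie below the line in both hearts and those of the other 8 genes above it.

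The β1 receptor, encoded by Adrb1 (ENSMUSG00000035283.5; mm10 chromosome 19, 56722199 to 56733113, plus strand), is the main β receptor of heart muscle cells. Adrb1 had 10.9 TPM in replicate 2, from 1082 expected counts, and 10.2 TPM in replicate 1, from 891 expected counts. The mean was 10.6 ± 0.481 TPM (SD, n = 2 mice), and the values of the mice were close. Its coding region of 1398 bases lies in 1 exon, and the transcript that holds it, Adrb1-201, carried 98.7% of the gene's TPM in replicate 2 and 98.4% in replicate 1.

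Adrb3 (ENSMUSG00000031489.15; chromosome 8, 27225776 to 27250616, minus strand) encodes the β3 receptor, best known from fat cells, where it drives lipolysis and heat production. It had 0.28 TPM in replicate 2, from 23 expected counts, and 0.09 TPM in replicate 1, from 5 expected counts. The authors' posterior mean TPM, an estimate that is pulled away from 0, was 0.49 in replicate 2 and 0.29 in replicate 1. The deposited interval of that estimate ran from 0.266 to 0.737 TPM in replicate 2 and from 0.0986 to 0.525 TPM in replicate 1. These intervals overlap, and all estimates of Adrb3 are under 1 TPM. The level of Adrb1 was 38.9 times that of Adrb3 in replicate 2 and 114 times in replicate 1, a log2 ratio of 6.06 ± 1.09 (SD, n = 2 mice). With the posterior mean TPM the log2 ratio was 4.79, so its size depends on how the few Adrb3 reads are turned into a level, while its direction was the same in both mice.

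Adra1a (ENSMUSG00000045875.13; chromosome 14, 66635251 to 66771168, plus strand) and Adra1b (ENSMUSG00000050541.14; chromosome 11, 43774606 to 43901210, minus strand) encode the α1A and α1B receptors. Adra1a had 19.05 TPM in replicate 2 (2634 expected counts) and 20.2 TPM in replicate 1 (2490 expected counts), a mean of 19.6 ± 0.834 TPM. Adra1b had 15.1 TPM in replicate 2 (1237 expected counts) and 12.8 TPM in replicate 1 (933 expected counts), a mean of 13.9 ± 1.63 TPM. Adra1b was therefore below Adra1a in both hearts, at 0.791 of its level in replicate 2 and 0.631 in replicate 1 (log2 ratio −0.50 ± 0.23, SD, n = 2 mice). The remaining α1 receptor gene, Adra1d, whose product is known from arteries, had 2.43 TPM in replicate 2 and 1.68 TPM in replicate 1. Of the summed TPM of these 3 genes Adra1a held 55.2 ± 4.41%, Adra1b 39.0 ± 3.13% and Adra1d 5.75 ± 1.27%.

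Transcripts of Adra1a differ in the end of the receptor's intracellular tail. The junctions are shown because they are where the encoded proteins part, and they were read from GENCODE M21 transcripts (mm10, chromosome 14, plus strand). Lower case marks the shared coding bases before the point of difference and capitals mark what follows.
Adra1a-201, 66727802 to 66727861: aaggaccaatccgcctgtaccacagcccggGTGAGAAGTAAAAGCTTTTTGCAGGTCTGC
Adra1a-203, 66727802 to 66727831 joined to 66731564 to 66731578: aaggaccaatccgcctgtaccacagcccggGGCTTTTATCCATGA
Adra1a-206, 66638431 to 66638460 joined to 66770585 to 66770589: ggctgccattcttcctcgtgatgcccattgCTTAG
In Adra1a-201 the exon is read on past a splice donor, giving 1398 coding bases. Adra1a-203 uses that donor and ends after 15 more bases, stop codon included, with 1281 coding bases. Adra1a-206 leaves the first coding exon for another last exon and stops after 885 coding bases.

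The long and the short tail shared most of the Adra1a level almost evenly. Transcripts with the long tail (Adra1a-201, Adra1a-202 and Adra1a-205) held 44.0% of the gene's TPM in replicate 2 and 51.0% in replicate 1, a mean of 47.5 ± 4.93%. The short tail (Adra1a-203) held 47.4% in replicate 2 and 42.4% in replicate 1, a mean of 44.9 ± 3.52%. Which tail was the higher one differed between the mice in the first transcript table, and the second quantifier gave 41.5% and 50.1% for the long and the short tail in replicate 2 and 47.2% and 46.1% in replicate 1. Adra1a-206 held 5.55% in replicate 2 and 3.53% in replicate 1.

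Adra1b has 2 annotated starts, and RefSeq (GRCm38.p6) gives a promoter window for each. They are shown because the quantifiers divided the gene's level between them differently. Lower case marks the 250 bases before the RefSeq start site and capitals the 50 bases from it on, both 5′ to 3′ on the minus strand.
Adra1b upstream start, chr11:43901188-43901487: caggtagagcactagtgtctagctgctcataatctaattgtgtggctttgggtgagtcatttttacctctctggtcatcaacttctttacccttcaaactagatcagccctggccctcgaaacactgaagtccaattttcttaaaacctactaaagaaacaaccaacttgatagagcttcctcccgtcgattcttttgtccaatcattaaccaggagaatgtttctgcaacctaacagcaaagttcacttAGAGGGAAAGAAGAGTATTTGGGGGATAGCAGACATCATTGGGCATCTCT
Adra1b downstream start, chr11:43836440-43836739: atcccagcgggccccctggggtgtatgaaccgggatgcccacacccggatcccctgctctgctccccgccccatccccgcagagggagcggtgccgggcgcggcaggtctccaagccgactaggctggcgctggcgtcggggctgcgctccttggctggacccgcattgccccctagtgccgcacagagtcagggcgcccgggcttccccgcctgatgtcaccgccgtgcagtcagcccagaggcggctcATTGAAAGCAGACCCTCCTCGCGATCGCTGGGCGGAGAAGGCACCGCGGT
The upstream window is 42.3% G or C and the downstream window 71.3%, beside a median of 52.7% over 32851 windows of 300 bases. The RefSeq start sites lie 27 bases (upstream) and 157 bases (downstream) from the nearest GENCODE transcript start.

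In the first transcript table the upstream start held 47.9% of Adra1b TPM in replicate 2 and 45.9% in replicate 1, and the downstream start 52.1% in replicate 2 and 54.1% in replicate 1. With the second quantifier the upstream start held 76.0% in replicate 2 and 78.4% in replicate 1, and the downstream start 24.04% in replicate 2 and 21.6% in replicate 1. The division was alike in both mice and differed between the quantifiers, so the files do not settle which start is the higher. The downstream start has 2 annotated transcripts, Adra1b-202 and Adra1b-204, with identical sequences, and both tables gave them equal values in each mouse. At the upstream start Adra1b-203, with 1386 coding bases, held the whole amount in the first table, while the second quantifier also gave Adra1b-201, with 1545 coding bases, 12.2% in replicate 2 and 13.4% in replicate 1.

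Chrm2 (ENSMUSG00000045613.9; chromosome 6, 36388084 to 36528414, plus strand) encodes the M2 receptor, the main muscarinic receptor of the heart. It had 32.0 TPM in replicate 2, from 6243 expected counts, and 30.2 TPM in replicate 1, from 5024 expected counts, a mean of 31.1 ± 1.33 TPM. The other muscarinic genes were all below 1 TPM in both mice. Chrm3 had 0.46 TPM in replicate 2 and 0.53 TPM in replicate 1, and Chrm1, Chrm4 and Chrm5 had at most 1 expected count in either mouse. Chrm2 held 98.4 ± 0.245% of the summed TPM of the 5 muscarinic genes. Its coding region of 1398 bases lies in 1 exon, and Chrm2-202 carried 99.2% of the gene's TPM in replicate 2 and 95.95% in replicate 1. A long noncoding RNA gene on the opposite strand, 9330158H04Rik, overlaps 142 exonic bases of Chrm2 and had 18.4 TPM in replicate 2 and 17.0 TPM in replicate 1, and reads of the overlap may have been counted for either gene if strand was not used. Gm45470, Mybph and Gm29331 overlap exons of Adrb3, Adora1 and Adcy6 on the opposite strand and had at most 1 expected count in either mouse.

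Adora1 (ENSMUSG00000042429.8; chromosome 1, 134199223 to 134235431, minus strand) encodes the A1 adenosine receptor, which slows conduction through the atrioventricular node. Adora1 had 5.73 TPM in replicate 2 (842 expected counts) and 5.44 TPM in replicate 1 (722 expected counts). It was the lowest of the 8 genes above 1 TPM. Chrm2 was 5.59 times as high as Adora1 in replicate 2 and 5.54 times in replicate 1, a log2 ratio of 2.48 ± 0.0087 (SD, n = 2 mice). Of the other adenosine receptors, Adora2a, known for widening coronary vessels, had 2.77 TPM in replicate 2 and 2.96 TPM in replicate 1. Adora2b had 0.24 TPM in replicate 2 and 0.26 TPM in replicate 1, and Adora3 had 1 expected count in each mouse. Adora1 held 64.0 ± 1.93% and Adora2a 32.8 ± 1.75% of the summed TPM of the 4 adenosine receptor genes.

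Adora1 had no stable leading transcript. Adora1-201, Adora1-202 and Adora1-203 carry the same number of coding bases, 978, and differ outside them. Adora1-203 led in replicate 2 with 42.3% and Adora1-202 in replicate 1 with 37.5% in the first table, while with the second quantifier Adora1-201 led in replicate 2 with 48.9% and Adora1-202 in replicate 1 with 53.3%. The gene's level was close in the 2 mice all the same. Over all 9 genes the same transcript led in both mice and with both quantifiers in 7, the exceptions being Adora1 and Adrb3, of which Adrb3 rests on few counts. Adra1b is among the 7 only while the identical Adra1b-202 and Adra1b-204 are taken apart, since together they held more than Adra1b-203 in the first table and less with the second quantifier.

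Adcy6 (ENSMUSG00000022994.9; chromosome 15, 98589973 to 98610076, minus strand) and Adcy5 (ENSMUSG00000022840.9; chromosome 16, 35154877 to 35305738, plus strand) encode the cyclases known as the main cardiac forms, both inhibited by calcium and by inhibitory G proteins. Adcy6 had 84.2 TPM in replicate 2 (11627 expected counts) and 88.6 TPM in replicate 1 (10004 expected counts), a mean of 86.4 ± 3.13 TPM. Adcy5 had 21.5 TPM in replicate 2 (5159 expected counts) and 19.6 TPM in replicate 1 (4190 expected counts), a mean of 20.6 ± 1.39 TPM. Adcy6 was thus the higher in both hearts, 3.91 times in replicate 2 and 4.53 times in replicate 1 (log2 ratio 2.07 ± 0.15, SD, n = 2 mice). This ratio and the shares that follow are of whole genes, and on full coding transcripts the ratio was smaller in the first transcript table. There Adcy6-201 and Adcy6-205 had 27.99 and 14.84 TPM in replicate 2 and 24.45 and 16.22 TPM in replicate 1. The full-length Adcy5-201 had 21.2 TPM in replicate 2 and 19.6 TPM in replicate 1. Of the summed TPM of 10 adenylyl cyclase genes Adcy6 held 66.8 ± 1.95% and Adcy5 15.9 ± 1.19%. Adcy9 followed with 7.86 ± 0.0165% and Adcy4 with 5.53 ± 0.733%, and Adcy7 and Adcy3 were the other 2 above 1 TPM in both mice.

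With the second quantifier Adcy5 had 26.7 TPM in replicate 2 and 34.0 TPM in replicate 1. The difference between the tables lies in Adcy5-202, an annotated retained intron of 374 bases, which had 4.75 TPM in replicate 2 and 13.9 TPM in replicate 1 there, against 0.33 TPM in replicate 2 and 0 TPM in replicate 1 in the first table. The full-length Adcy5-201, with 3786 coding bases in 21 exons, had 21.2 TPM in replicate 2 and 19.6 TPM in replicate 1 in the first table, and 22.0 TPM in replicate 2 and 20.1 TPM in replicate 1 in the second. The coding transcript of Adcy5 was therefore measured alike by both.

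In TPM of the first transcript table, much of the Adcy6 level lay on transcripts without the full coding region, and in expected counts less of it did. Adcy6-201, with 3504 coding bases, held 33.3% of the gene's TPM in replicate 2 and 27.6% in replicate 1. Adcy6-205, with 3498 coding bases, held 17.6% in replicate 2 and 18.3% in replicate 1. The retained-intron transcript Adcy6-202 held 24.7% in replicate 2 and 24.4% in replicate 1, and Adcy6-207, annotated as a target of nonsense-mediated decay, 6.35% in replicate 2 and 6.69% in replicate 1. Short transcripts of the gene's 5′ part held 18.1% in replicate 2 and 23.0% in replicate 1. TPM is per length, so these shares rested on few reads, 275 of 11627 expected counts in replicate 2 and 324 of 10004 in replicate 1. In replicates 2 and 1 Adcy6-201 had 5849 and 4500 expected counts, Adcy6-205 1884 and 1813, and Adcy6-202 2820 and 2584. The mice were alike in this division and the quantifiers were not: the second gave Adcy6-201 48.3% in replicate 2 and 49.1% in replicate 1, and Adcy6-202 6.55% in replicate 2 and 7.11% in replicate 1. The first put all of the short 5′ share on Adcy6-204 and the second all of it on Adcy6-203.

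The coding transcripts of Adcy6 differ in their ends and length and, at some exon ends, by a few bases, shown here because their number decides whether the reading frame is kept (GENCODE M21 transcripts, mm10, chromosome 15, minus strand). Capitals mark the bases that the other transcript of the pair leaves out.
Adcy6-201, 98600172 to 98600201 joined to 98600004 to 98600027: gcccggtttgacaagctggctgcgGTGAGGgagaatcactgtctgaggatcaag
Adcy6-205, 98600178 to 98600201 joined to 98600004 to 98600027: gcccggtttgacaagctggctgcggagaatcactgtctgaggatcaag
Adcy6-205, 98598858 to 98598886 joined to 98598740 to 98598763: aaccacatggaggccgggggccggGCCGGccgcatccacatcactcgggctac
Adcy6-207, 98598863 to 98598886 joined to 98598740 to 98598763: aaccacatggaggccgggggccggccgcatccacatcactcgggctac
The first pair differs by 6 bases, which keeps the reading frame. The second pair differs by 5 bases, which does not, and Adcy6-207 has 1572 coding bases.

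**Figure D2:**
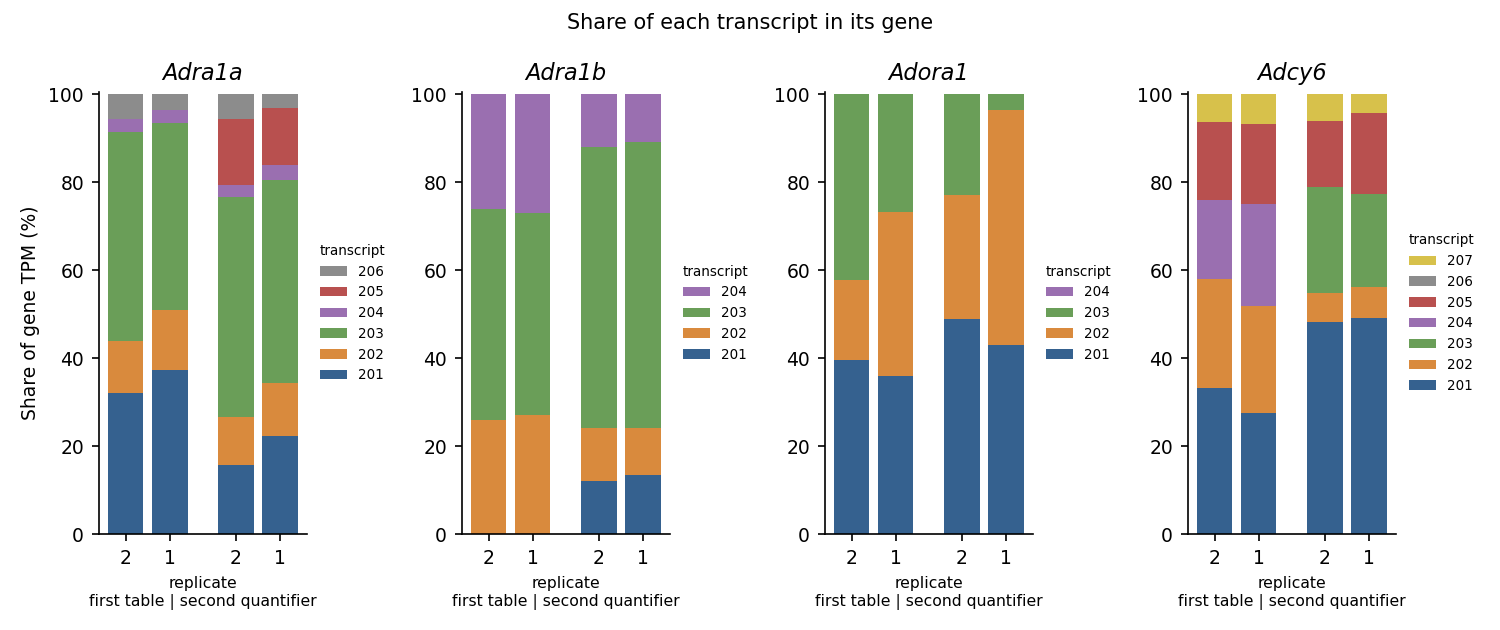
Share of each annotated transcript in its gene's TPM (%, stacked bars) for Adra1a, Adra1b, Adora1 and Adcy6, with replicate 2 left of replicate 1 in each table. The shares are alike in both hearts for Adra1b and Adcy6 and change with the quantifier, and those of Adora1 differ between hearts too.

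Grk5 (ENSMUSG00000003228.9; chromosome 19, 60889749 to 61095968, plus strand) encodes a kinase that phosphorylates active receptors at the membrane and is also found in the nucleus of heart muscle cells. Grk5 had 9.6 TPM in replicate 2, from 1759 expected counts, and 8.84 TPM in replicate 1, from 1542 expected counts, a mean of 9.22 ± 0.537 TPM. Grk2, the other kinase studied most in the heart, had 21.5 TPM in replicate 2 and 18.7 TPM in replicate 1, above Grk5 in both mice. Of the summed TPM of 5 receptor kinase genes Grk2 held 51.7 ± 1.19%, Grk5 23.8 ± 0.391%, Grk6 18.2 ± 0.209%, Grk3 5.52 ± 0.886% and Grk4 0.868 ± 0.119%. Grk5-201, with 1770 coding bases, carried 78.6% of the gene's TPM in replicate 2 and 85.7% in replicate 1.

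**Figure D3:**
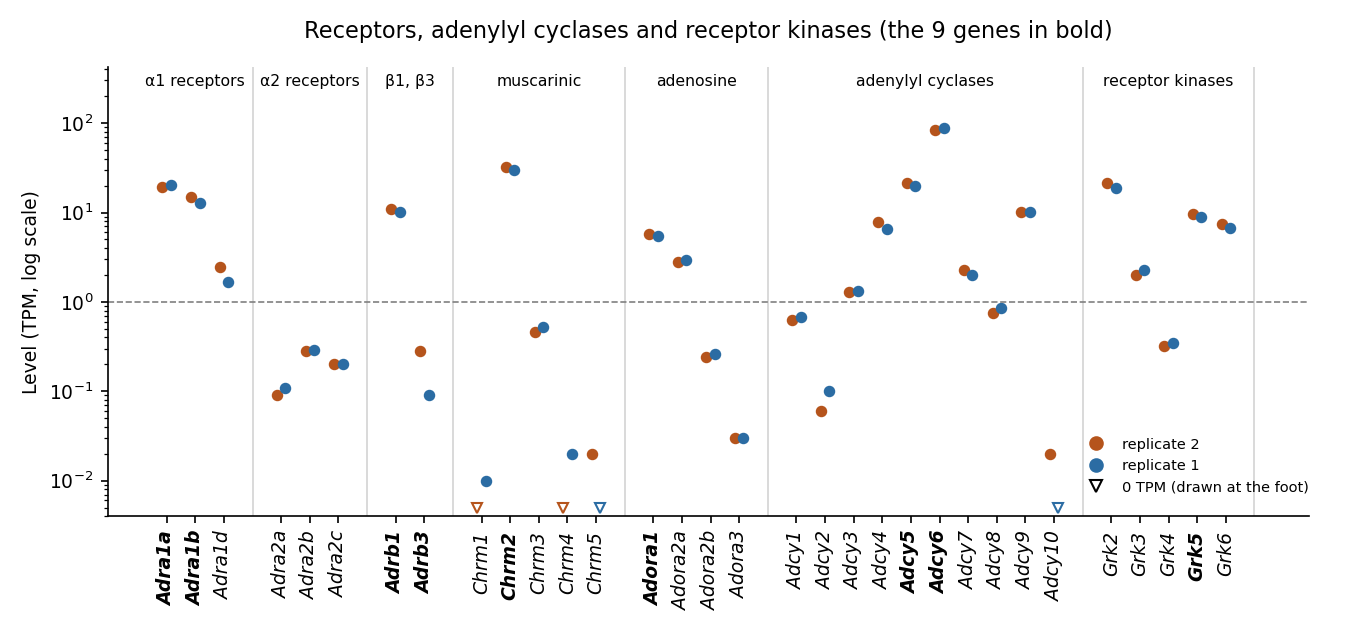
Level in TPM on a log axis of the α1, α2, β1 and β3, muscarinic and adenosine receptor genes, 10 adenylyl cyclases and 5 receptor kinases, with replicate 2 left of replicate 1 and each point 1 heart. Open triangles at the foot stand for 0 TPM, and the dashed line marks 1 TPM. Adcy6 stands highest at 84.2 and 88.6 TPM in replicates 2 and 1, and the α2 receptor genes lie below 1 TPM.

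The genes that work with the 9 differed in how completely they were detected. Of 11 other adrenergic, muscarinic and adenosine receptor genes only Adora2a and Adra1d reached 1 TPM in both mice. The α2 receptor genes Adra2a, Adra2b and Adra2c, whose products restrain noradrenaline release from nerves, had means of 0.1, 0.285 and 0.2 TPM.

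Downstream of the receptors, 18 of 20 G protein subunit genes reached 1 TPM in both mice. Gnas, the α subunit of the stimulatory G protein that β receptors use, was highest with 473 TPM in replicate 2 and 445 TPM in replicate 1. Gng5 (98.9 ± 3.20 TPM), Gnb2 (92.1 ± 4.45 TPM) and Gnai2 (92.0 ± 1.51 TPM) followed, the last an inhibitory α subunit. The genes below 1 TPM were Gnaz and Gng7.

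Of 19 genes for cyclic AMP effectors and anchors 17 reached 1 TPM in both mice. Their median level was 22.7 TPM in replicate 2 and 22.8 TPM in replicate 1. Popdc2, a cyclic AMP binding membrane protein of striated muscle, had 182 TPM in replicate 2 and 167 TPM in replicate 1. The protein kinase A genes Prkar1a (144.92 ± 0.0283 TPM, regulatory) and Prkaca (122 ± 7.40 TPM, catalytic) and the kinase inhibitor Pkia (90.4 ± 1.58 TPM) came next.

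Both genes of the potassium channel that inhibitory G proteins open were detected. Kcnj3 had 24.4 TPM in replicate 2 and 24.2 TPM in replicate 1, and Kcnj5 had 20.1 TPM in replicate 2 and 17.7 TPM in replicate 1. Of 10 genes for RGS proteins, which speed up the inactivation of G proteins, 8 were detected. They were led by Rgs5 (106 ± 4.95 TPM, also a pericyte marker), Rgs2 (18.6 ± 5.74 TPM), Rgs3 (13.8 ± 1.31 TPM) and Rgs12 (5.46 ± 0.601 TPM).

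Of 13 effectors of Gq, the class of G protein that α1 receptors use, 12 were detected. The phospholipase C gene Plcb4 stood first at 23.7 ± 0.898 TPM, followed by the inositol trisphosphate receptor Itpr1 (14.8 ± 0.396 TPM) and the protein kinase C genes Prkca (12.3 ± 0.0495 TPM) and Prkce (10.1 ± 0.601 TPM). Of 6 other receptor kinase and arrestin genes 5 were detected, the exception being Grk4. The arrestin genes Arrb1 (6.57 ± 0.827 TPM) and Arrb2 (4.04 ± 0.212 TPM) were both above 1 TPM.

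No gene listed for the synthesis of catecholamines or acetylcholine reached 1 TPM, while some of those for clearance did. Of 11 genes for catecholamine synthesis and clearance 3 reached 1 TPM in both mice, among them 2 that act in clearance, the monoamine oxidase gene Maob (19.3 ± 0.177 TPM) and the transporter gene Slc22a3 (3.485 ± 0.134 TPM). Th, the first enzyme of catecholamine synthesis, had 1 expected count in each mouse. Of 6 genes for acetylcholine synthesis and breakdown 2 were detected, Bche (5.01 ± 0.552 TPM) and Colq (3.48 ± 0.523 TPM). Chat, which makes acetylcholine, and Slc18a3, which loads it into vesicles, had 0 counts in both mice. A count of 0 allows up to 3 counts in a library. Of 9 genes for adenosine production and clearance 8 were detected, led by adenosine kinase (Adk, 95.55 ± 1.84 TPM), the transporter Slc29a1 (27.2 ± 5.05 TPM), Nt5c1a (21.8 ± 0.46 TPM) and Entpd1 (8.94 ± 0.665 TPM).

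The hearts held markers of several cell types, and in bulk tissue fewer cells of a type and less RNA per cell cannot be told apart. All 5 cardiomyocyte markers were above 1 TPM, with means from 391 to 7699 TPM, as were all 5 endothelial, 5 fibroblast, 5 pericyte and smooth muscle and 4 macrophage markers. Of 6 neuron and Schwann cell markers 1 was, and none was at 0 in both mice.

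Between the 2 hearts, none of the 8 genes whose expected counts averaged 50 or more differed by 2-fold. Among all 12453 genes with that count 71 did, or 0.57%, of which 26 were higher in replicate 2 and 45 in replicate 1. On the log2 scale, replicate 2 over replicate 1 after scaling for library size, the 8 genes ran from −0.14 (Adra1a) to 0.19 (Adra1b), and the middle 95% of all these genes from −0.43 to 0.38. The counting intervals, at 95%, left out 0 for 4 of the genes. They were −0.22 to −0.06 for Adra1a, 0.06 to 0.31 for Adra1b, 0.04 to 0.15 for Chrm2 and 0.02 to 0.14 for Adcy5. Counts here carry no molecular identifiers, so the intervals cover counting error only. The coefficient of variation between the 2 libraries beyond counting error, over 15170 genes, was 6.63%, and how much of it is between animals cannot be told from these labels. With 1 library a mouse no p-value can be given, and the smallest 2-sided exact p that 2 pairs allow is 0.5. In none of the other lists of the pathway did a gene with the minimum count differ by 2-fold.

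Adrb3, whose mean count lay under that minimum, was 3.67-fold higher in replicate 2 than in replicate 1 (23 against 5 expected counts), with a counting interval from 1.47 to 13.3-fold. Genes of fat cells were higher in replicate 2 as well. All 5 adipocyte markers were, with a summed level of 16.6 TPM in replicate 2 and 10 TPM in replicate 1. Adipoq, the adiponectin gene, had 89 expected counts in replicate 2 and 40 in replicate 1, Plin1, which coats lipid droplets, 160 in replicate 2 and 57 in replicate 1, and Lep, the leptin gene, 3 in replicate 2 and 1 in replicate 1. The 3 brown adipocyte markers summed to 27.2 TPM in replicate 2 and 18.0 TPM in replicate 1. Most of that sum was Cidea, with 20.0 TPM in replicate 2 and 16.5 TPM in replicate 1, only 1.18-fold higher in replicate 2. Ucp1, the uncoupling protein of brown fat, had 6.95 TPM in replicate 2 and 1.43 TPM in replicate 1. Elovl3 rested on few expected counts, 13 in replicate 2 and 3 in replicate 1. Of the 5 pericyte and smooth muscle markers 4 were higher in replicate 2, with summed levels of 272 TPM in replicate 2 and 245 TPM in replicate 1. The smooth muscle genes Acta2 (1.44-fold, counting interval 1.35 to 1.53) and Myh11 (1.30-fold, 1.23 to 1.38) had intervals that left out 1, as did Rgs5 (1.04-fold, 1.02 to 1.07), and all were under 2-fold. The intervals of Abcc9 (1.006-fold, 0.986 to 1.025) and Kcnj8 (0.998-fold, 0.898 to 1.11) held 1. The median log2 ratio of all 12453 genes with the minimum count was 0.018, so a direction alone says little. The part of fat or smooth muscle cells in the level of Adrb3 was not tested.

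**Figure D4:**
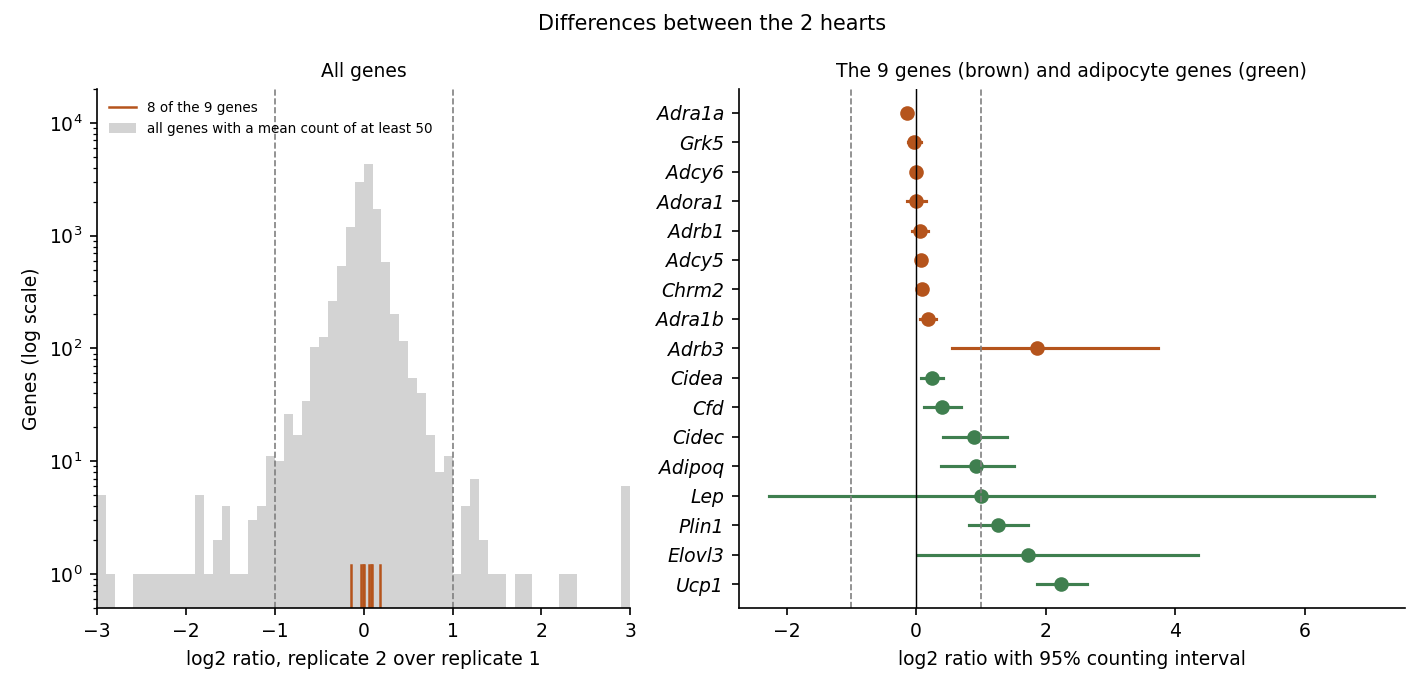
Left, number of genes (log axis) by log2 ratio of replicate 2 over replicate 1, for genes whose expected counts averaged 50 or more, values beyond the axis being held in the end bars, with 8 of the 9 genes as brown ticks. Right, the ratio of each of the 9 genes (brown) and of adipocyte genes (green) with its 95% counting interval; dashed lines mark 2-fold. The 8 ticks lie between −0.14 and 0.19, while Adrb3 at 1.88 lies to the right. The adipocyte genes, brown adipocyte genes included, spread from 0.24 (Cidea) to 2.24 (Ucp1).

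The promoter table held 8 windows for 6 of the 9 genes (Adcy5, Adora1, Adra1b, Adrb1, Chrm2 and Grk5). The cyclic AMP response element TGACGTCA, read on both strands, was in 0 of the 8 windows and in 1.79% of 32851 windows of 300 bases. The shorter TGACG, which is part of it, was in 1 of the 8, that of Adrb1, and in 20.8% of all windows. A match is a description of letters and not of a binding site. The windows of Adcy5 (79% G or C), Adrb1 (72.3%) and Adora1 (66% in both) were above the median of 52.7% in base composition, as was the downstream window of Adra1b, and those of Chrm2 (52.7%) and Grk5 (54.3%) were near it.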

How the data were processed

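Total RNA-seq of 2 mouse hearts was analysed, 1 library each. The authors used the mm10 build and the GENCODE M21 annotation, per the descriptions deposited beside the files. The authors deposited expected counts, TPM, posterior mean TPM with interval bounds and FPKM per gene and transcript, and the percent of the gene's TPM on each transcript, per the file headers. A second transcript table, made from the reads and an index, holds the authors' estimated counts and TPM, per the file headers. Which aligner and quantifiers were run, and at what level the authors' interval bounds stand, was not given in the sources used here; RSEM and kallisto write such column names. Whether counting used strand is not stated, so genes that overlap on opposite strands may share reads.

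Spike-ins and entries without an Ensembl identifier were left out. Detection meant at least 1 TPM in each mouse. Whole-number rounding was applied to the expected counts for edgeR 4.0.16 (R 4.3.3), which gave the library scaling (TMM) and the dispersion under an intercept-only model. Ratios between mice are replicate 2 over replicate 1 with a prior count of 0.5, with exact Clopper-Pearson intervals at 95%, and 2-fold was the threshold. The steps were tested on simulated data with known changes. Python 3.11.15, numpy 2.4.6, pandas 2.3.3, scipy 1.17.1 and matplotlib 3.10.9 were used. Promoter sequences came from RefSeq (GRCm38.p6).

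The 9 genes and all lists were chosen with earlier results of these data known. The text names all 9 genes, up to the 4 highest genes of each pathway list, and genes at 0 TPM in both mice, except some list members that are not reported here. Other list members are named as examples, and transcripts were grouped by tail or start, after seeing values. The alternatives tried were the posterior mean TPM, FPKM, uncorrected counts, the second quantifier, DESeq2 1.42.0 size factors, total count, TPM over nuclear protein-coding genes, other thresholds, priors and pseudocounts, and leaving out each mouse. A lower count minimum for the 9 genes was added after seeing the data.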

Additional observations from a re-analysis of the deposited data

How the results depend on the processing

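With pseudocounts, other estimates and the other quantifier every log2 ratio between paired genes kept its sign. Adrb1 over Adrb3 was 4.79 with posterior mean TPM and 3.29 with a pseudocount of 1 TPM. Adra1b over Adra1a was −1.25 in expected counts, where longer transcripts weigh more. Chrm2 over Adora1 was 2.42 with posterior mean TPM, 2.84 in expected counts, 2.44 with the second quantifier, and 2.46 and 2.29 with pseudocounts of 0.1 and 1 TPM. Adcy6 over Adcy5 was 1.21 in expected counts and 1.58 with the second quantifier. Leaving out a mouse gave 5.28 to 6.83 for Adrb1 over Adrb3, −0.66 to −0.34 for Adra1b over Adra1a, 2.47 to 2.48 for Chrm2 over Adora1 and 1.97 to 2.18 for Adcy6 over Adcy5. Of the 9 genes 8 were detected under each of the 6 alternatives run. Levels were less stable: with the second quantifier the mean level lay outside the first mean ± SD for 7 of the 9 genes. So did the mean share of the coding transcript highest in the first table for 6 of the 9, with Grk5-201 at 94.7% in place of 82.2%. At a 1.5-fold threshold 256 of the 12453 genes with a mean count of at least 50 were apart between mice. At 2-fold the number was 406 with a minimum mean count of 10 and 5630 with any mean count above 0. Of the 9 genes 1, Adrb3 (23 against 5 expected counts), passed under either lower minimum, which was chosen after seeing the data. The number of genes that met each lower minimum is not given here. Without that share, the passing of Adrb3 is no result about the 9 genes. Of 54 alternative ratios between mice 52 stayed within the counting interval, the exceptions being those of Adcy6 (−0.07) and Grk5 (0.12) taken from TPM. The cause of the differences between the quantifiers was not tested. No paired analysis was possible because the labels give 1 group. Depth limits Adrb3 most, and 2 mice limit every spread.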
